A study of Mus musculus with 2 samples.

Results

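The cells described here are the 266 cells that the study's deposited annotation calls central memory T cells (Tcm), out of 4441 cells from transplanted mouse hearts. They made up 5.99% of all cells and 18.2% of the 1461 cells of 5 annotated T cell types. The others were naive (Tn), effector or effector memory (Tem/eff), tissue-resident memory-like (Trm-like) and regulatory (Treg) cells. Shares of T cells below refer to these 5 types. Cells annotated NKT or unconventional T cells were not counted among them, and the unconventional T cells were not compared here. Every cell with the annotation Tcm was taken, whatever its transcripts were. Cells were isolated at postoperative day 14 from 6 Bm12 heart allografts in C57BL/6 (B6) recipients, 3 with intact *Il33* (IL-33+, hearts 1 to 3) and 3 from *Il33*-deficient donors (IL-33-, hearts 4 to 6). Bm12 hearts carry an altered MHC class II I-A molecule, in both groups, and grafts are rejected chronically because B6 CD4+ T cells recognize it. The donor line lacking *Il33* came from backcrossing, the recipients in both groups carried intact *Il33*, and the immune cells came from enzymatic digests after a density gradient. The 6 hearts received a hashtag each and were pooled into 1 gene expression library and 1 hashtag library, so the heart was the replicate (n = 3 per group) and every cell barcode was distinct.

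Central memory T cells are antigen-experienced T cells that keep the trafficking program of naive cells. CCR7 (*Ccr7*) helps them enter lymph nodes, S1PR1 (*S1pr1*) under KLF2 (*Klf2*) lets them leave, TCF-1 (*Tcf7*) and LEF-1 (*Lef1*) preserve their capacity to divide again, and the IL-7 receptor (*Il7r*) sustains them. CD44 (*Cd44*) separates them from naive cells. In a heart allograft, such cells can be recalled to effector function by donor antigen. IL-33 is an alarmin released by stromal cells, which acts through the receptor ST2 (*Il1rl1*) and its adaptor MyD88 (*Myd88*).

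Hearts 1 to 6 contributed 42, 19, 53, 62, 49 and 41 Tcm cells. Unique molecular identifiers (UMIs, each standing for 1 captured transcript) numbered 2303 to 8220 per Tcm cell, with a median of 4039, and summed to 73428 in heart 2 and to 259238 in heart 4, the extremes. Heart 2 therefore gave the least precise values. Median depth per cell was lower in Tn cells (2764), Trm-like cells (2706), Tregs (2861) and natural killer (NK) cells (2712) and higher in Tem/eff cells (5693), so the shares of cells with a UMI that are compared between types are also given after each cell was thinned at random to 1500 UMIs, a depth every cell reached. The targeted gene, *Il33*, measured 2.61, 1.68 and 9.89 CPM over all cells of hearts 1 to 3 and 4.36, 1.65 and 2.34 CPM in hearts 4 to 6. In cells annotated fibroblasts, which numbered 4 to 270 per heart, it was 24.3, 0 and 50.7 CPM against 32.6, 73.8 and 16.1 CPM, so the groups overlapped and it was not lower in the hearts labelled IL-33-. These 3' tags do not check the genotype, because the sources used here do not give the deleted part of the allele and recipient cells carry the intact gene. *Il33* was found in 0 of 266 Tcm cells, which allows a share of up to 1.13% of cells with a UMI.

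Levels below are mean CPM (UMIs scaled to the same total in every cell) over the Tcm cells of a heart, averaged over the 6 hearts unless values per heart are given. The authors assigned the annotation by clustering these same cells, so levels in Tcm cells against other annotated types are a description, with no test. The T cell receptor (TCR) complex was present. *Cd3e*, a signaling chain of that complex, stood at 287 ± 46.5 CPM (SD, n = 6 hearts), against 254 in Tn cells, 568 in Tem/eff cells and 18.1 in NK cells. A UMI of *Cd3d*, *Cd3e* or *Cd3g* was held by 86.8% of Tcm cells (231 of 266), near the 81.1% of Tn cells and far above the 10.5% of NK cells and 6.29% of B cells, which set the level of stray RNA. After thinning these shares were 63.9, 60.9, 6.44 and 4.55%. A TCR constant-region transcript (*Trac*, *Trbc1* or *Trbc2*) was found in 94.4% (77.1% after thinning). NK cells also held one in 63.3% (46.1% after thinning) and cells annotated NKT in 92.5% (58.8%), so this set separates the types less than the *Cd3* genes do.

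*Tcf7*, *Lef1* and *Klf2*, transcription factors of the naive and memory trafficking program, were intermediate between naive and effector cells. *Tcf7* measured 289 ± 59.6 CPM (SD, n = 6), below the 464 of Tn cells and above the 203 of Tem/eff cells in 6 of 6 hearts. *Lef1* measured 138 ± 68.6 CPM, against 516 in Tn cells, 21.7 in Tem/eff cells and 58.6 in Trm-like cells, and exceeded the latter 2 types in every heart. *Klf2* was likewise second among the 5 T cell types, at 513 ± 227 CPM against 1512 in Tn cells. *Cd44* was 502 ± 46.4 CPM and above the 133 of Tn cells in 6 of 6 hearts, but it was also 646 CPM in NK cells and 470 in B cells. On these 4 genes the annotated cells had the mixture that the label describes. The authors annotated clusters by marker genes in these same cells, so this is no independent check of the label. Of the other memory and differentiation factors, *Satb1* (1267 CPM against 2529 in Tn and 289.7 in Tem/eff cells), *Foxp1* (492 against 834 and 418) and *Myb* (361 against 645 and 172) shared that order and others did not. *Bach2*, a repressor of effector differentiation, was 81.8 CPM in Tcm cells, below Tn (271) and near Tem/eff cells (89.6). *Foxo1* (388 against 288 and 320.5) and *Runx3* (633 against 258 and 260.0) were above both, as was *Eomes*, which is given with the NK-associated genes below.

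Other defining genes went against the label or were mixed. *Il7r* had its lowest mean of the 5 T cell types in Tcm cells, 76.4 ± 65.9 CPM, and the 6 hearts read 32.3, 39.5, 208, 66.8, 62.6 and 48.9. Heart 3 alone was high, and the neighbouring means of 93.7 in Tregs and 94.6 in Tem/eff cells lay within that spread. *Ccr7* stood at 137 ± 70.4 CPM, above Trm-like cells alone (88.4) among the 5, whereas it reached 629 in Tn cells and 894 in Tem/eff cells. *S1pr1* stood at 322 ± 75.4 CPM, below Tn (916) and Trm-like cells (466) and above Tem/eff cells (152) and Tregs (149) in 6 of 6 hearts. The coreceptor *Cd4* had its lowest mean of the 5 T cell types, with 6.19 ± 5.47 CPM against 67.8 in Tn, 302.5 in Tem/eff and 397 in Treg cells. A *Cd4* UMI was found in 9 of 266 Tcm cells (3.38%, exact 95% interval 1.56 to 6.33%), and in 0.376% after thinning. NK cells, which should lack it, held *Cd4* in 1.29% (0.644% after thinning). At equal depth the share in Tcm cells was thus not above this background, but it came from heart 4 alone. The mean of 1.72 CPM in NK cells was below that of Tcm cells, so a small share above the background remains possible. After thinning *Cd4* was held by 7.82% of Tn and 30.6% of Tem/eff cells. The study lists Tcm cells among subtypes of CD4+ helper cells, so the name is used below only as the annotation. *Il1rl1*, which encodes the IL-33 receptor, was held by 2 of 266 cells (0.752%), against 15.2% of Tregs and 0.859% of NK cells. After thinning the shares were 0.752, 12.5 and 0.215%, so *Il1rl1* in Tcm cells rested on those 2 cells.

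**Figure D1:**
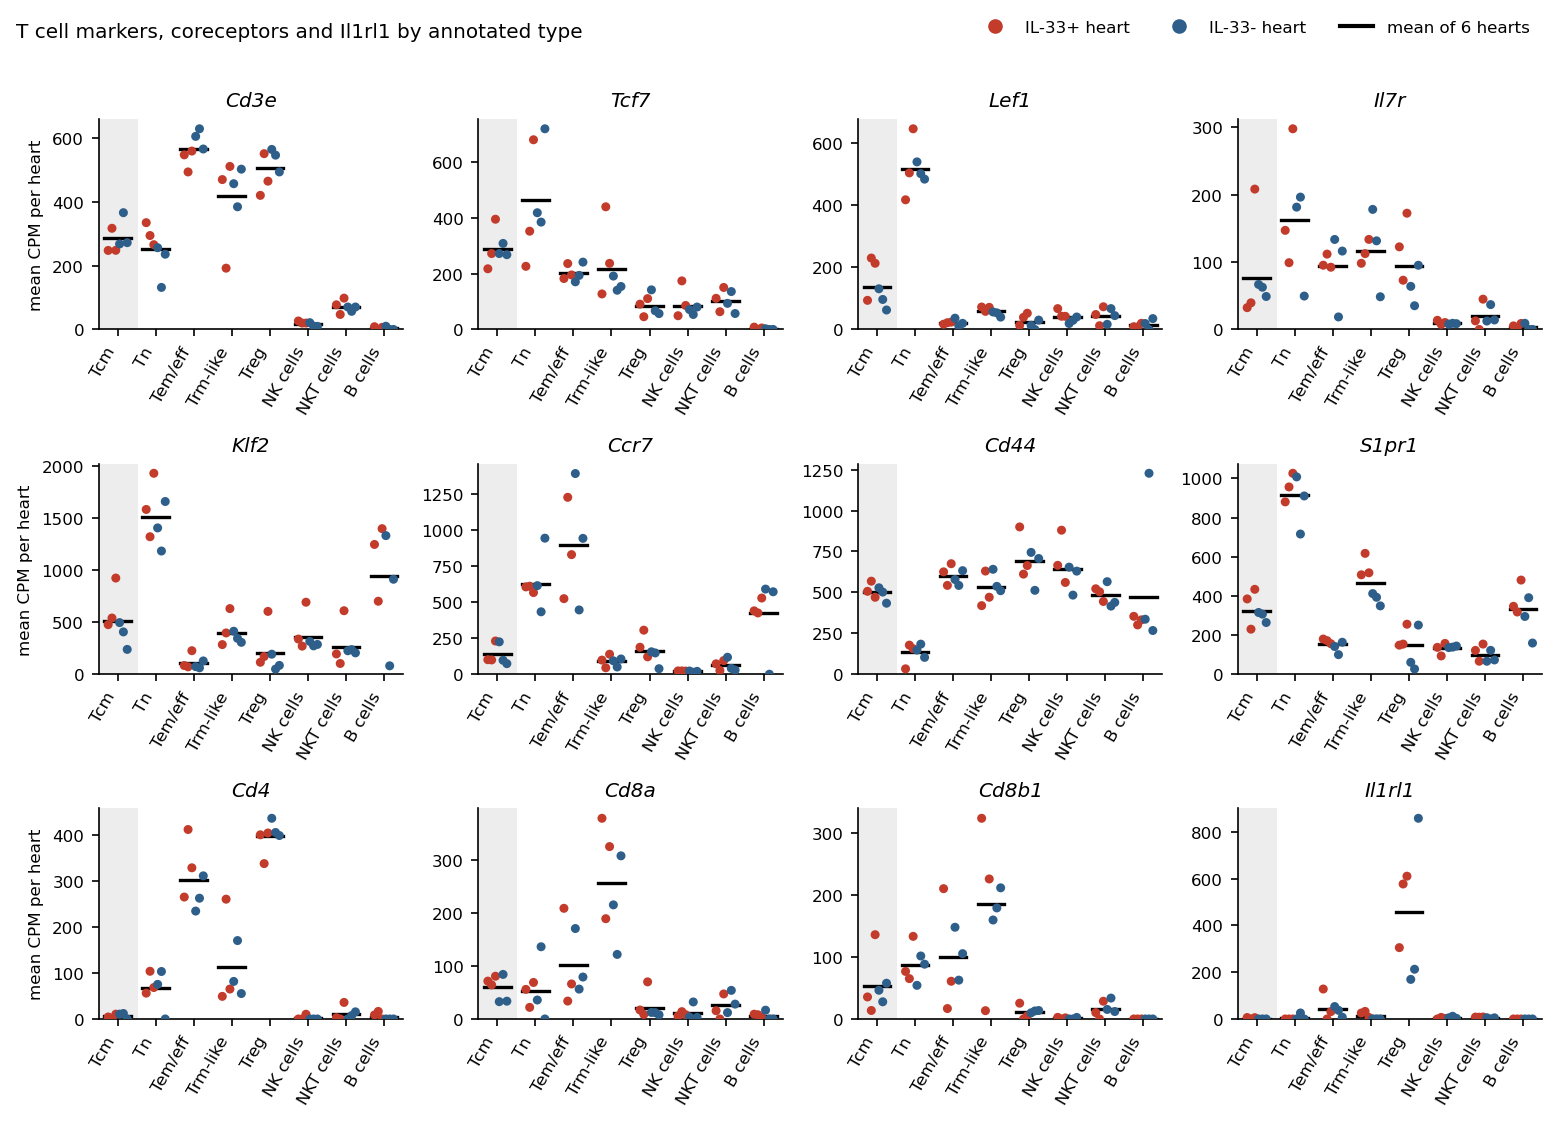
Mean CPM per heart of T cell markers, *Klf2*, coreceptors and *Il1rl1* (vertical axes, linear) in each annotated type (horizontal axes); points are hearts, red IL-33+ and blue IL-33-, and bars are means of 6 hearts. In the shaded Tcm column *Tcf7*, *Lef1* and *Klf2* lie between Tn and Tem/eff cells, while *Cd4* and *Il1rl1* lie near 0.

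Among the 20 genes highest in Tcm cells relative to the other T cell types, 6 encode receptors and adaptors best known from NK cells (*Klra6*, *Klra1*, *Klra7*, *Klra9*, *Fcer1g* and *Tyrobp*). The *Klra* genes encode the Ly49 receptors, lectin-like receptors that bind MHC class I and in most cases inhibit the cell, and that are carried by NK cells and by some subsets of T cells. *Klra6* measured 54.5 ± 29.5 CPM (SD, n = 6), 14.9 times the next T cell type (Trm-like, 3.66), and *Klra1* measured 118 ± 77.7 CPM, 12.3 times the next (Trm-like, 9.57). *Klra7* followed with 148 ± 62.3 CPM and a ratio of 4.24. *Klra6* and *Klra1* were also above NK cells, at 13.6 and 63.8 CPM, whereas *Klra7* (187 in NK cells) and *Klra9* (49.0 in Tcm cells and 227 in NK cells) were not. These genes are close paralogs in 1 cluster, and reads may be split among them in counting, so the assignment to single members is uncertain. Together with *Klrc1*, *Klrc2*, *Klrk1* and *Klrd1*, which encode the NKG2 receptors and their partner CD94, the named genes span 0.795 Mb of chromosome 6, from 129591782 to 130386874 on GRCm38.

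Counting cells avoids that split. A UMI of any of 11 *Klra* genes was held by 153 of 266 Tcm cells (57.5%), and by 39.5% after thinning. The thinned share was 6.58% in Tn cells, 3.06% in Tem/eff cells, 10.5% in Trm-like cells and 7.98% in Tregs, close to the 5.59% of B cells, and it was 72.4% in NK cells and 61.7% in cells annotated NKT, a type annotated apart from the 5 T cell types. By heart the unthinned share in Tcm cells was 57.1, 63.2 and 35.8% in IL-33+ grafts and 64.5, 59.2 and 70.7% in IL-33- grafts. Heart 3 was the low one, and the other 5 ranged from 57.1 to 70.7%.

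The signaling adaptor genes among those named above were present at a level below that of NK cells. *Fcer1g*, encoding the Fc receptor gamma chain, stood at 208 ± 61.0 CPM, 3.34 times the next T cell type (Tregs), and at 952 CPM in NK cells. *Tyrobp*, encoding DAP12, stood at 95.9 ± 34.8 CPM and at 702 CPM in NK cells. One or the other was found in 138 of 266 Tcm cells (51.9%), between 9.88% in Tn cells and 97.5% in NK cells, and B cells held them in 17.5%. After thinning these shares were 27.8, 7.0, 88.6 and 11.5%. Cells annotated NKT were close to NK cells, with 96.5% (80.4% after thinning). The NK-restricted receptor *Ncr1*, in contrast, was 3.40 CPM in Tcm cells and 44.5 in NK cells, and the granzyme *Gzma* was 324 CPM against 5962.

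Among transcription factors, *Hhex*, a homeobox factor known from NK cell and innate lymphocyte development, followed *Klra6* and *Klra1* in ratio (78.7 ± 26.5 CPM, 4.86 times Trm-like cells). *Hhex* was 232 CPM in NK cells, 159 in cells annotated NKT and 73.6 in B cells. *Ikzf2* encodes Helios, which is best known from Tregs and is also made by some innate-like and CD8+ T cells. It was not chosen by the ratio rule and was added after its values were seen. It reached 892 ± 225 CPM in Tcm cells, with 632, 1229, 732, 1071, 918 and 772 in hearts 1 to 6. The mean was 703 in Tregs and 77.5 in Tn cells. The Treg genes proper were low, with *Foxp3* at 2.38 CPM (132 in Tregs) and *Ctla4* at 36.3 CPM (1551 in Tregs). *Ikzf2* and a *Klra* gene were detected together in 114 Tcm cells (42.9%), against 1.23% of Tn cells, 5.32% of Tregs, 10.7% of NK cells and 32.3% of cells annotated NKT. After thinning the shares were 22.6% in Tcm cells, 0.823% in Tn cells, 2.28% in Tregs, 4.94% in NK cells and 13.0% in NKT cells. *Eomes*, a T-box factor of memory and NK lineages, was at 260.4 ± 117 CPM, against 19.8 in Tn and 1013 in NK cells.

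Cytokine and chemokine genes followed. *Il2rb*, the receptor chain through which IL-2 and IL-15 signal, was detected in 98.1% of Tcm cells (84.6% after thinning) and measured 1755 ± 276 CPM, above every other T cell type in 6 of 6 hearts (Trm-like 1218, Tn 486). It was higher still in NK cells (2726) and in cells annotated NKT (2574). *Xcl1*, a chemokine for cross-presenting dendritic cells, stood at 323 ± 90.6 CPM, with 24.8 in Tn cells and 357 in NK cells. *Ccl5* was 1059.5 ± 234 CPM, well short of Trm-like cells (2880). The remaining genes selected by ratio were *Qrfp*, *Cd7*, *Cxxc5*, *Pakap*, *Cemip2*, *Trf*, *Lgals3bp*, *Tyrobp*, *1700025G04Rik*, *Pde2a*, *Trdc*, *Arl4d*, *Slc26a11* and *Fndc3b*, at 2.38 to 4.42 times the next T cell type. *Pde2a*, a cyclic nucleotide phosphodiesterase, was the most abundant of these at 513 ± 63.7 CPM, level with NK cells (514). Of the same genes, only *Pakap*, *Trf*, *Trdc* and *Fndc3b* were higher in Tcm cells than in both NK cells and cells annotated NKT. Among the others, *Arl4d* was 82.2 CPM in Tcm and 394 in NK cells, *Cemip2* 161 and 350, and *Cxxc5* 54.0 and 239. *Pakap* is 1 of 22 symbols whose deposited value is a mean over several gene identifiers. For 16 of the 20 genes the Tcm value exceeded the compared type in all 6 hearts, and for *Trdc* and *Klra9* it did so in 4.

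**Figure D2:**
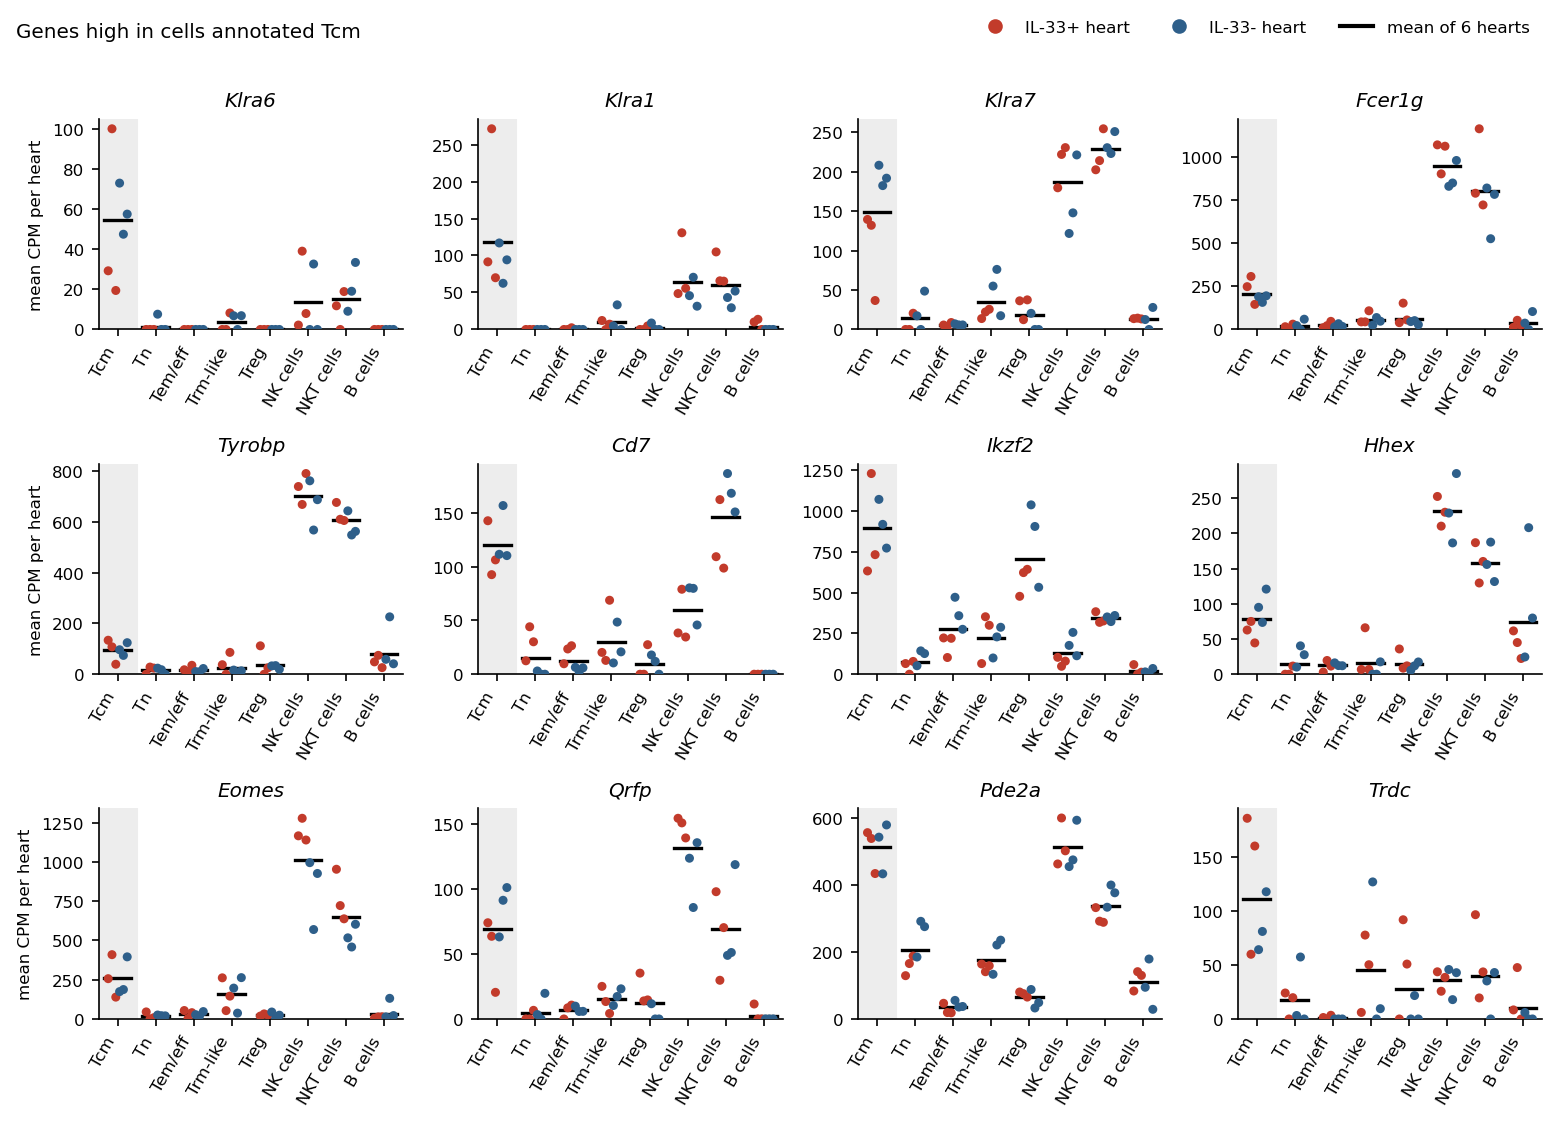
Mean CPM per heart (vertical axes, linear) of 12 genes high in cells annotated Tcm, in each annotated type (horizontal axes); points are hearts, red IL-33+ and blue IL-33-, and bars are means of 6 hearts. *Klra6*, *Klra1*, *Cd7* and *Ikzf2* stand above the other T cell types in the shaded Tcm column, while *Fcer1g*, *Tyrobp* and *Eomes* are higher still in NK cells.

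Genes lowest in Tcm cells relative to the other T cell types included an interferon-induced gene and lymphotoxin beta. *Ifi27l2a*, the interferon-induced gene, was 73.4 ± 44.9 CPM in Tcm cells, 0.355 times the lowest other T cell type (Tn, 207), and reached 833 CPM in Tem/eff cells. *Ltb*, encoding lymphotoxin beta, was 82.8 ± 39.6 CPM against 189.6 in Trm-like cells. *Cytip*, which controls integrin adhesion, was 234 ± 67.3 CPM against 529.5 in Tn cells. In NK cells and cells annotated NKT, *Ifi27l2a* (31.0 and 37.9 CPM) and *Ltb* (42.4 and 60.4) were lower than in Tcm cells. *Cytip* was slightly higher there (277 and 283 CPM) but still below Tn cells. The low levels of these genes were thus not particular to Tcm cells. Others of this end were *Rassf3*, *Sgms1*, *Cited2*, *Arid5b*, *Foxn3* and *Igf1r*, with ratios of 0.354 to 0.528. Of the genes named here, all but *Cited2* and *Igf1r*, which were above it in 1 and 2 hearts, were below the compared type in 6 of 6 hearts.

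Cells annotated Tcm were not uniform in their coreceptor and receptor transcripts. *Cd8a* or *Cd8b1*, the chains of the CD8 coreceptor, were detected in 74 of 266 cells (27.8%, exact 95% interval 22.5 to 33.6%, and 15.04% after thinning), against 2.04% of NK cells (0.967% after thinning). This share was near that of Tn cells (24.3%, 13.2% after thinning) and Tem/eff cells (21.4%, 15.6%) and below Trm-like cells (52.8%, 40.6%). *Trdc*, the constant region of the TCR delta chain, was detected in 47 cells (17.7%, interval 13.3 to 22.8%, and 10.5% after thinning), against 1.65% of Tn cells and 9.02% of NK cells (4.94% after thinning). Cells annotated NKT held *Trdc* in 16.4% (5.76% after thinning). Only 8 Tcm cells held both Cd8 and *Trdc*. This gave 66 cells with Cd8 and no *Trdc*, 39 with *Trdc* and no Cd8, and 148 (55.6%) with a UMI of none of *Cd8a*, *Cd8b1*, *Cd4* and *Trdc*. Thinning raised the last share to 74.4%, so it depends on depth, and a cell without a UMI may still have expressed the gene. Median UMIs per cell were 4607, 3841 and 3925 in the 3 classes.

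The classes differed in other genes that had not defined them. Levels in this paragraph and the next 2 are means over all cells of a class, and the number of hearts is counted over the 5 hearts with at least 5 cells of the compared class. They are a description, as cells of a heart are not replicates. The genes named are only part of those compared. The share of all compared genes with the same direction in 5 of 5 hearts is not given. In Cd8 cells the lymph node homing receptor *Ccr7* was 338 CPM, against 68.3 in cells with none of the 4 genes, and it was higher in 5 of 5 hearts. *Lef1* (184 against 108), *Cd6* (187 against 94.6), *Foxp1* (597 against 436), *Trbc1* (483 against 320.4), *Il7r* (119.9 against 44.9) and *Ifi27l2a* (150.4 against 60.2) were likewise higher in 5 of 5. *Tcf7* (373 against 270.2) was higher in 4 of 5. *Ccr7*, *Lef1* and *Tcf7* were thus most abundant in the cells with a Cd8 UMI.

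The NK-associated genes ran the other way. *Fcer1g* was 55.6 CPM in Cd8 cells and 243 in cells with none of the 4, *Klra1* was 47.3 and 132, *Klra7* was 109 and 176, and *Ikzf2* was 529 and 1129, each lower in Cd8 cells in 5 of 5 hearts. *Il2rb* (1252 and 1921), *Id2* (876 and 1780.4), *Eomes* (141 and 283), *Xcl1* (135 and 423), *Runx3* (396 and 706) and *Junb* (1836 and 3205) were also lower in Cd8 cells in 5 of 5. *Fcer1g* or *Tyrobp* was detected in 19 of 74 cells with a Cd8 UMI (25.7%) and in 119 of the 192 others (62.0%). *Cd3e* did not follow this division, at 267 CPM in Cd8 cells and 281 in cells with none of the 4.

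Cells with a *Trdc* UMI and no Cd8 carried transcripts of the gamma delta TCR. *Tcrg-C4*, a gamma chain constant region, was 137 CPM in them and 11.3 CPM in cells with none of the 4 genes, and *Tcrg-C1* was 69.1 and 2.26. *Trac*, the alpha chain constant region, was 56.5 CPM against 355, with a UMI in 7 of 39 cells and in 104 of 148. With the beta chain genes counted too, *Trac*, *Trbc1* or *Trbc2* was found in 32 of the 39 cells (82.1%), so most of them also held an alpha or beta chain transcript. The same set was found in 63.3% of NK cells. *Klrc1*, encoding NKG2A, was 529 CPM against 210.4, and *Rora* (329 against 180.5), *Ctsw* (515 against 317) and *Fasl* (171 against 75.4) were higher too. All 7 of these differences had the same direction in 5 of 5 hearts. *Ikzf2* was 591 CPM and *Fcer1g* 225 CPM in *Trdc* cells.

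**Figure D3:**
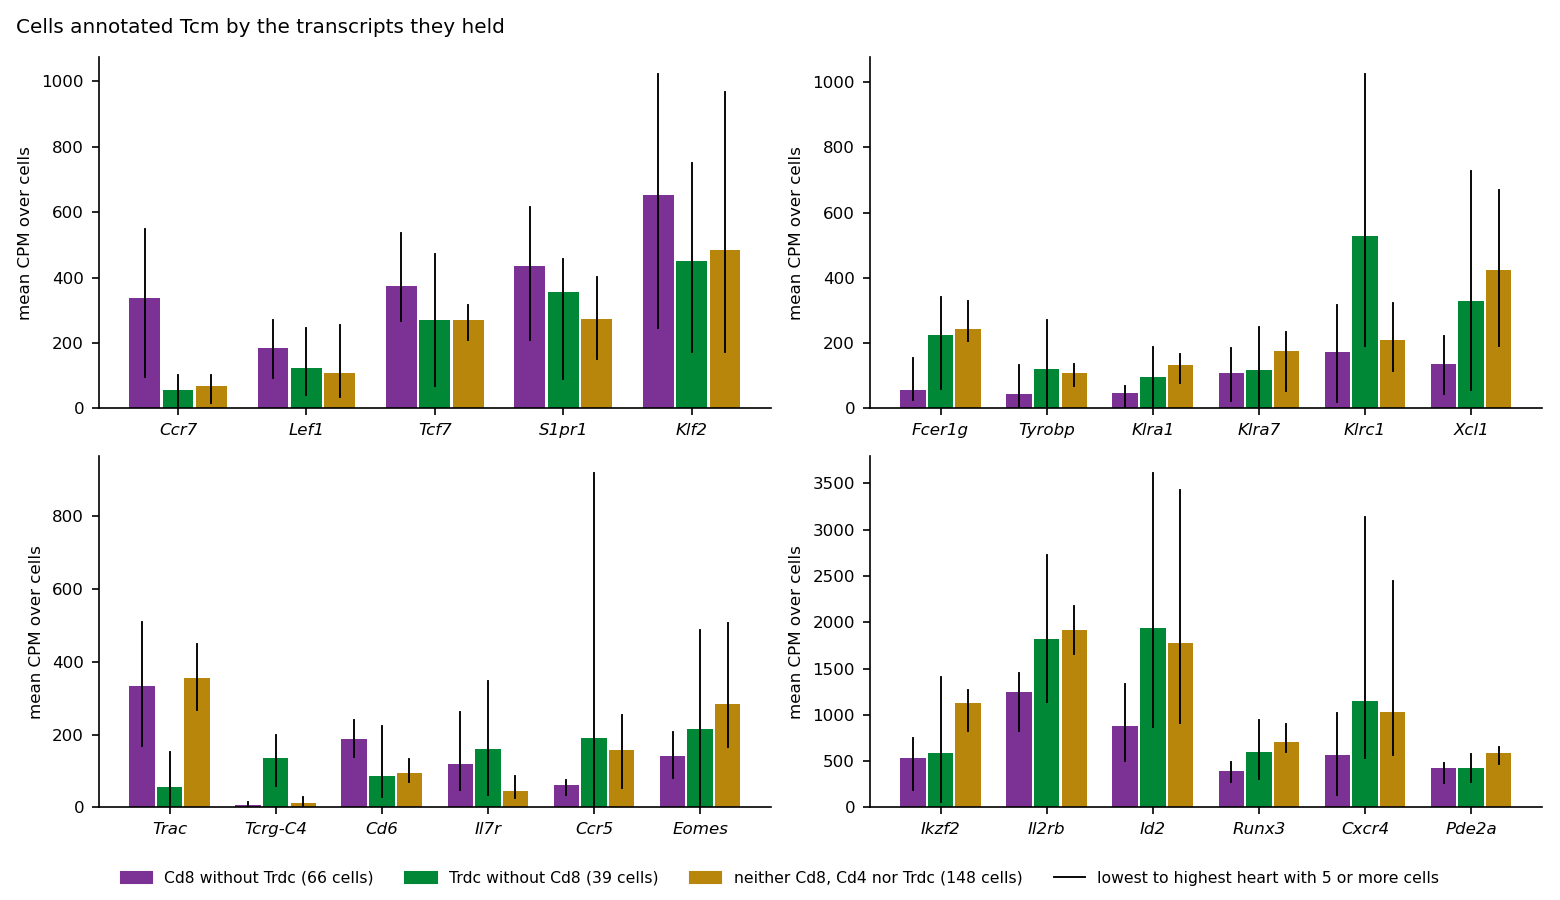
Mean CPM over cells (vertical axes, linear) in 3 classes of Tcm cells set by their UMIs; bars are means over all cells of a class, and lines run from the lowest to the highest heart with 5 or more cells of it. *Ccr7*, *Lef1* and *Cd6* are highest in Cd8 cells, *Tcrg-C4* and *Klrc1* in *Trdc* cells, and *Ikzf2*, *Xcl1* and *Klra1* in cells with none of the 4 genes.

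The first comparison between grafts asked whether donor IL-33 altered the abundance of Tcm cells. They made up 18.8, 18.8 and 12.6% of T cells in IL-33+ hearts 1 to 3 and 18.1, 29.9 and 19.5% in IL-33- hearts 4 to 6. Heart 3 was lowest and heart 5 highest, and the groups overlapped. The means were 16.7 ± 3.60% and 22.5 ± 6.42% (SD, n = 3 each), a difference of -5.77 percentage points with a 2-sided exact permutation p of 0.3. With 3 hearts per group this test cannot go below 0.1. The ratio of Tcm to Tn cells varied more, at 2.21, 1.36 and 0.679 against 0.608, 3.27 and 2.73 (exact permutation p of 0.5), since Tn cells numbered 14 to 102 per heart.

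The makeup of the Tcm cells by heart did not differ beyond the spread either. A Cd8 UMI was held by 23.8, 15.8 and 43.4% in IL-33+ hearts and by 22.6, 30.6 and 22.0% in IL-33- hearts (exact permutation p of 0.8). Heart 3 decided the direction, and without it the difference turned from 2.62 to -5.25 percentage points. A *Trdc* UMI was held by 35.7, 10.5 and 20.8% against 12.9, 12.2 and 12.2% (exact permutation p of 0.4), with heart 1 highest. For *Cd4* the shares were 2.38, 0 and 3.77% against 4.84, 6.12 and 0% (exact permutation p of 0.6), and 0 of 19 cells in heart 2 and 0 of 41 in heart 6 allow a share of up to 15.8% and 7.32%.

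**Figure D4:**
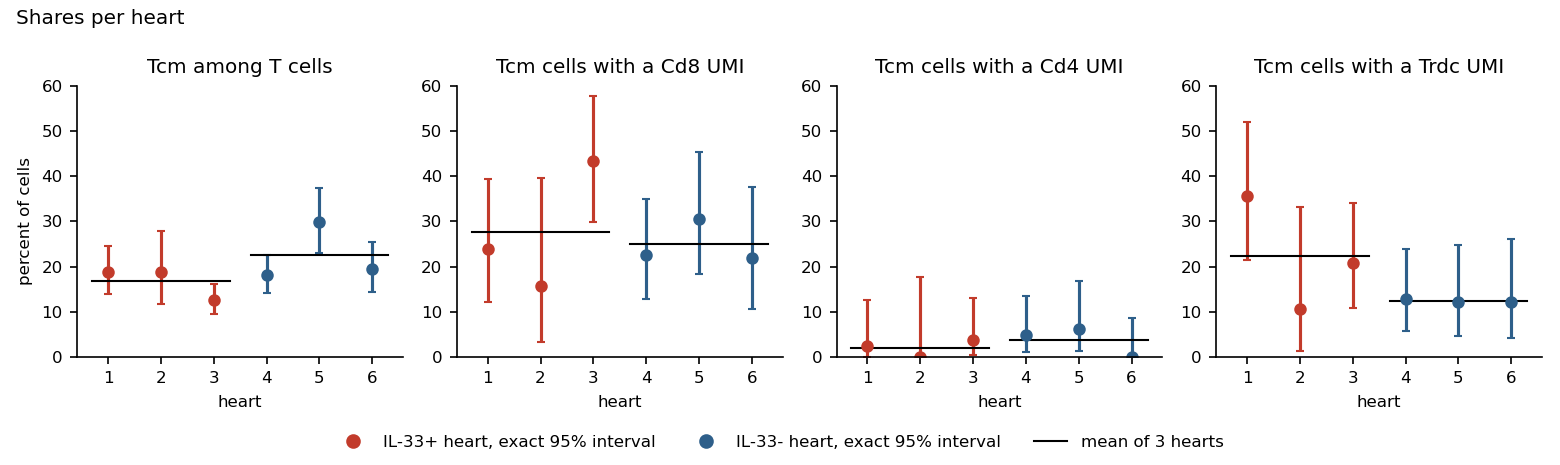
Percent of cells per heart (vertical axes) for Tcm cells among T cells and for Tcm cells with a Cd8, *Cd4* or *Trdc* UMI; points are hearts 1 to 6, vertical lines exact 95% binomial intervals that cover counting error only, and horizontal lines means of 3 hearts. The IL-33+ and IL-33- points overlap in all 4 panels.

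The second comparison asked which genes of Tcm cells differed between grafts with and without IL-33. Differences are on the scale of log2(mean CPM + 10), IL-33+ over IL-33-, which understates the change of low genes. None of 7767 genes (0%) passed an adjusted p of 0.05 in limma with Benjamini-Hochberg adjustment, the smallest adjusted p being 0.951, while 378 genes (4.87%) had an unadjusted p of 0.05 or less. In simulated counts with 200 genes changed 4-fold, limma on CPM of summed UMIs recovered 105 and called 4 others. That simulation gave all genes the same fixed dispersion, not the spread between these hearts, and held no smaller changes. It therefore does not show which differences the main fit could have found here. At 2-fold and an unadjusted p of 0.05, the thresholds of the study's own gene tests, 168 genes (2.16%) were counted, 61 higher and 107 lower in IL-33+ grafts. That is 36.3% higher, whereas limma-voom on the recovered UMIs, which also called none, gave 57.5% higher (134 higher and 99 lower), so the balance of directions depended on the method. The groups of hearts did not overlap for 800 genes (10.3%). None of the values below therefore passed the test over all genes, and they are given as levels per heart.

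By the naming rule (2-fold, unadjusted p of 0.05 or less, no overlap, at least 30 UMIs) 46 genes qualified, 11 higher and 35 lower, and the 25 with the smallest p are described. *Cpt1a*, which admits long-chain fatty acids into mitochondria for oxidation, was the first of them. It measured 77.0, 90.2 and 83.9 CPM in IL-33+ hearts and 24.6, 27.7 and 26.7 CPM in IL-33- hearts, a log2 difference of 1.37 ± 0.38 (SE, limma unadjusted p of 0.00077, adjusted p of 0.951). It rested on 55 UMIs in all, and the separation of the groups was a condition of the naming rule. *Cdk6*, a kinase of the entry into the cell cycle, read 82.5, 88.6 and 70.1 against 36.0, 53.3 and 21.0 CPM, a log2 difference of 1.01. *Nol11*, a factor of ribosome assembly, and *Aopep*, an aminopeptidase, were the other 2 higher in IL-33+ grafts, with log2 differences of 1.30 and 1.23.

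The other 21 genes were lower in IL-33+ grafts. *Tgfa*, a ligand of the epidermal growth factor receptor, measured 0, 0 and 13.9 CPM against 75.2, 20.1 and 29.8 CPM, and its log2 difference of -1.81 rests on hearts at 0 and moved between -3.90 and -0.71 with the pseudocount. *Myd88*, the adaptor shared by ST2 and Toll-like receptors, read 15.8, 19.7 and 19.2 against 38.1, 51.3 and 86.0 CPM, a log2 difference of -1.22. *Klra7* read 139, 132 and 36.7 against 208, 182 and 192 CPM, a log2 difference of -1.03. Heart 3 was far below the other IL-33+ hearts and also had the most cells with a Cd8 UMI. Without heart 3 the difference was -0.48, whereas without cells holding a Cd8 UMI it was -1.03, as in all cells. Without the 149 cells that held at least 2 markers of 1 other lineage, NK included, it was -0.18.

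The metabolic genes in this set included *Pgd*, of the pentose phosphate pathway, at 40.6, 11.8 and 19.9 against 57.4, 71.7 and 75.2 CPM. They also included *Ndufs7*, a subunit of respiratory complex I, at 7.85, 11.8 and 15.9 against 41.9, 46.9 and 38.6 CPM, and *Adh5*, which clears formaldehyde and S-nitrosoglutathione. In each of the 3 every IL-33+ heart lay below every IL-33- heart, which the naming rule fixed in advance by asking for no overlap. The rest were *Cdan1*, *Naa16*, *Cep250*, *Bag6*, *Zfp24*, *Bicd2*, *Bpnt1*, *Inpp1*, *Chmp1b*, *Fndc4*, *Marcksl1*, *Smarcd2*, *Cables1*, *Glrx3* and *Lmbr1l*, with log2 differences of -1.60 to -1.02. *Cdan1*, *Naa16*, *Cep250*, *Zfp24* and *Adh5* were at 0 in heart 2, the heart with 19 cells. Markers of other cell types moved among the hearts as well. The summed NK markers in Tcm cells were 482, 1309 and 437 CPM in IL-33+ hearts and 341, 484 and 706 CPM in IL-33- hearts, with all 6 of them detected. In heart 2 *Gzma* alone gave 881 of the 1309 CPM. The part of these markers in the values of the named genes was not tested beyond leaving cells out.

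Gene lists fixed for T cell programs are described by counts against the background of 2.16% of genes higher and 2.7% lower at an unadjusted p of 0.05, and the median of all genes was -0.03. Homing and egress genes had 9 higher and 7 lower of 16 tested (median 0.09), and 3 of the higher ones had an unadjusted p of 0.05 or less. These were *Klf2* (476, 539 and 923 against 495, 406 and 238 CPM, log2 difference 0.75), *S1pr4*, another sphingosine phosphate receptor (79.8, 101 and 72.4 against 66.9, 31.0 and 35.0 CPM, 0.85), and *Selplg*, the ligand of P-selectin (0.40). For *Klf2* the groups overlapped, with heart 3 highest. Its difference was 0.74 without cells holding a Cd8 UMI, 0.47 without heart 3 and 0.46 without heart 6. The median of the list was -0.10 without heart 3.

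Among memory and differentiation factors, 10 were higher and 7 lower of 17 (median 0.02). *Lef1* read 93.9, 230.2 and 213 against 131, 96.7 and 62.8 CPM (log2 difference 0.78), with heart 1 inside the IL-33- range, and 0.93 without cells holding a Cd8 UMI. *Foxo1*, which drives *Klf2* and *Il7r* expression, was lower at 392, 285 and 297 against 451, 410.2 and 492 CPM (-0.47), without overlap. *Satb1* (0.19), *Runx3* (0.02) and *Foxp1* (-0.04) differed by less than 2 SE. *Id2*, a repressor of E proteins in effector and innate lymphocytes, read 887, 2988 and 1057 against 1841, 1448 and 1825 CPM. Heart 2 alone was high. Leaving heart 2 out gave the only call in any setting, a log2 difference of -0.80 ± 0.14 (SE, limma adjusted p of 0.00301), against -0.26 with all hearts.

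TCR and costimulation genes had 6 higher and 12 lower of 18 (median -0.11), and no member had an unadjusted p of 0.05 or less. Without heart 2 that median was 0.08. Early activation genes had 9 higher and 13 lower of 22 (median -0.05). *Fosb* (log2 difference 0.78) and *Nr4a1* (0.65), both induced within minutes of stimulation, were higher, while *Nr4a3* (-0.42) and the NF-kappaB inhibitor *Nfkbia* (-0.40) were lower, and in all 4 the groups overlapped. *Nr4a1* and *Nr4a3*, 2 receptors induced by the same TCR signal, thus had opposite signs.

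Effector genes had 8 higher and 5 lower of 13 (median 0.01). *Fasl*, the death ligand, read 79.8, 140.0 and 222 against 54.7, 68.9 and 76.3 CPM (0.94), with no overlap. *Gzma*, granzyme A, read 217, 881 and 241 against 95.5, 243 and 263 CPM (0.94). Heart 2 alone was high, and without it the difference was 0.30. The same heart had the highest summed NK markers (1309 CPM), but *Gzma* is 1 of them and made up 881 CPM of that sum. The sum is therefore no separate view of the high *Gzma* in heart 2. *Ccl5*, *Nkg7* and *Ctsw* differed by 0.01 to 0.29. *Gzmk*, *Il2*, *Il4*, *Il13*, *Il17a* and *Areg* were under the filter on low values, as were *Cd4*, *Cd40lg* and *Il1rl1*.

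Interferon-stimulated genes had 5 higher and 15 lower of 20 tested, with a median of -0.39, and 3 had an unadjusted p of 0.05 or less. *Ifi27l2a* read 13.3, 24.7 and 124 against 76.6, 105 and 96.4 CPM (-1.10), with hearts 1 and 2 low and heart 3 highest of all. *Socs1*, a brake on cytokine signaling that interferon induces, read 65.8, 29.4 and 83.7 against 107, 111 and 81.4 CPM (-0.74), and *Ifit1* read 4.89, 0 and 5.78 against 42.3, 23.3 and 13.1 CPM on 22 UMIs (-1.37). *Ifi47* (-0.59) did not overlap between groups but had a limma unadjusted p of 0.067. The median was 0.04 once the 149 cells with markers of another lineage were left out, and -0.20 both without heart 4 and with a pseudocount of 50 CPM. The receptor chain *Ifnar1*, counted among cytokine receptors, read 74.0, 39.2 and 70.9 against 95.9, 122 and 86.7 CPM (-0.67), and 0.07 without those 149 cells. The cells left for that fit numbered 18, 9, 28, 30, 22 and 10 in hearts 1 to 6, so these values rest on few cells. Leaving those cells out also moved the medians of homing and egress genes to 0.45, of memory factors to 0.31 and of TCR genes to 0.25. The marker lists that set these cells hold *Gzma*, *Tyrobp* and *Fcer1g*, which many cells annotated Tcm carried.

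The survival list had 5 higher and 3 lower of 8 (median 0.06). *Bcl2*, which protects resting lymphocytes from apoptosis, read 345, 191 and 261 against 139, 169.5 and 144 CPM (0.74), and *Bcl2a1b* was lower (-0.86, groups overlapping). Without the 149 cells the *Bcl2* difference was 0.28. Heat shock genes had 6 higher and 2 lower of 8 (median 0.26, and -0.11 without heart 3), with *Hsp90ab1* at 2294, 2684 and 2568 against 2149.9, 2006 and 2011 CPM (0.29, and 0.06 without the 149 cells). Proliferation genes had 1 higher and 7 lower of 8 (median -0.32), with *Pcna* at -0.35 and *Hmgb2* at 0.12, and the median was -0.01 without the 149 cells. MHC class I genes (median -0.08), inhibitory receptors (-0.03), cytokine receptors (0.08), ribosomal proteins (-0.01) and mitochondrial transcripts (-0.10) had medians within 0.1 of 0, and in these 5 lists *Ifnar1* was the only member that reached an unadjusted p of 0.05.

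Of the most abundant members of each list, *Klf2*, *Selplg*, *Bcl2* and *Hsp90ab1* were described above for their unadjusted p, and the ones that follow are among those that had a p above 0.05. The TCR genes *Cd3d* (log2 difference 0.11 ± 0.22, SE), *Trbc1* (-0.22 ± 0.24) and *Trbc2* (0.09 ± 0.18) and the costimulatory receptor *Cd27* (-0.12 ± 0.22) had overlapping groups. So did *Il2rb* (-0.04 ± 0.15), the integrin chain *Itgal* (-0.04 ± 0.20) and the chemokine receptor *Cxcr4* (0.29 ± 0.25). *Junb* (0.16 ± 0.14), *Dusp2* (-0.07 ± 0.16) and *Tnfaip3* (0.19 ± 0.16), all induced by stimulation, were of the same small size. MHC class I transcripts differed by -0.07 ± 0.11 for *B2m*, -0.16 ± 0.12 for *H2-K1* and -0.08 ± 0.14 for *H2-D1*. *Tox*, a factor of chronically stimulated T cells, differed by 0.42 ± 0.39, and the activation-induced receptor *Tnfrsf18* by -0.32 ± 0.30.

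**Figure D5:**
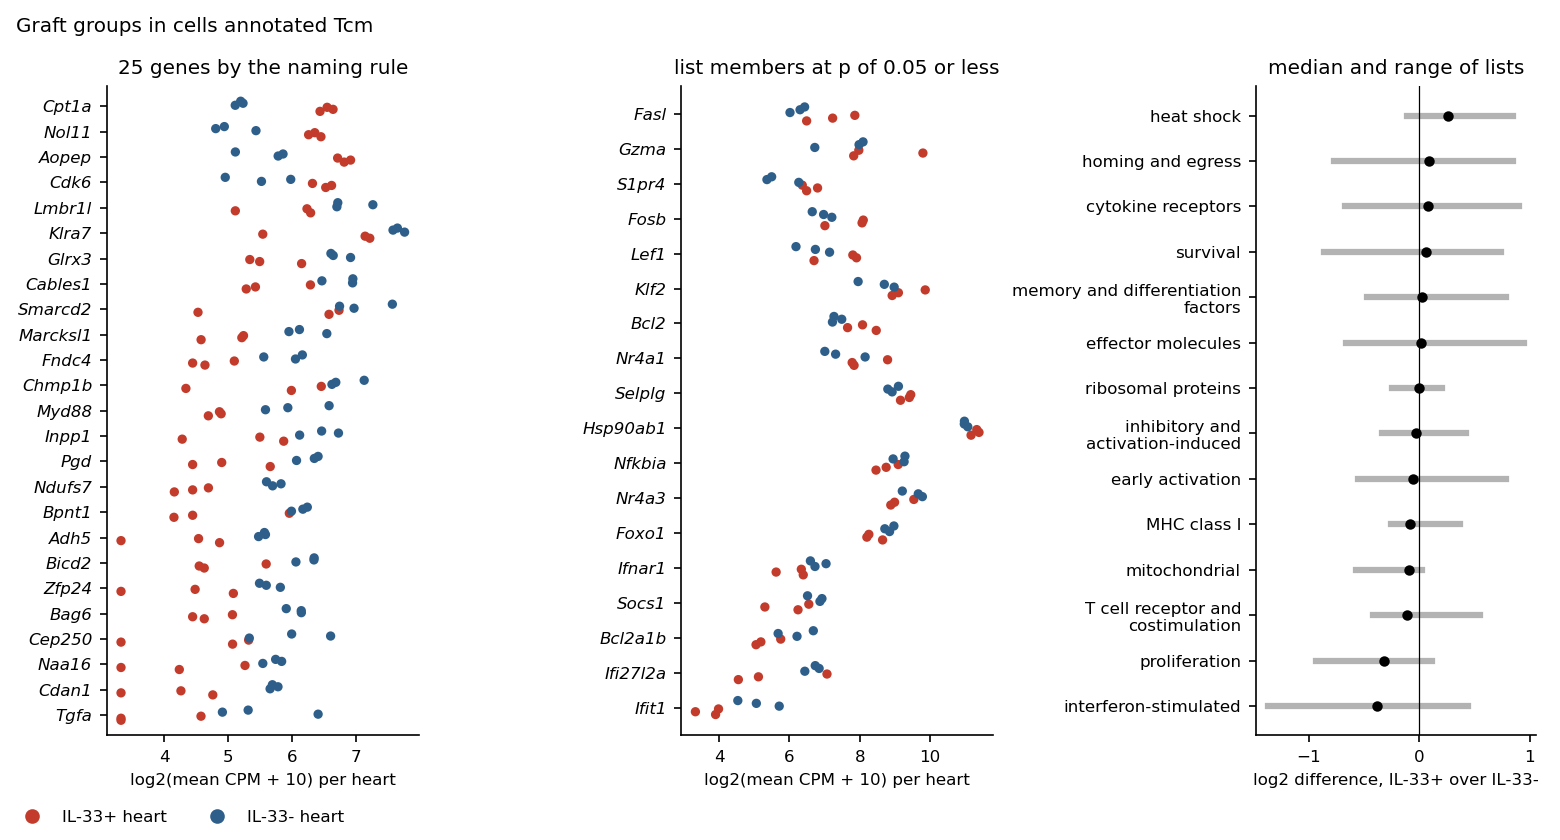
Left and middle: log2(mean CPM + 10) in Tcm cells of each heart (horizontal axes), red IL-33+ and blue IL-33-, for the 25 genes of the naming rule and for list members with an unadjusted p of 0.05 or less. Right: the median (point) and range (bar) of the log2 difference, IL-33+ over IL-33-, over the tested members of each list. The interferon-stimulated list has the lowest median, -0.39. The 25 genes were chosen for groups that do not overlap, and *Cpt1a* has the smallest unadjusted p among them.

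A last comparison asked whether the difference between grafts was particular to Tcm cells, using the difference between 2 types within each heart. No gene passed an adjusted p of 0.05 against Tn cells (0 of 6383, 0%, limma smallest adjusted p of 0.910), and 345 (5.4%) had an unadjusted p of 0.05 or less. Against Tem/eff cells none of 7640 passed (0%, smallest adjusted p of 0.961), and 390 (5.1%) had an unadjusted p of 0.05 or less. For *Cpt1a* the log2 difference was 1.37 ± 0.38 (SE) in Tcm cells, -0.57 ± 0.90 in Tn cells and 0.39 ± 0.27 in Tem/eff cells. For *Cdk6* it was 1.01 in Tcm cells, 0.09 in Tn cells and 0.83 in Tem/eff cells. *Gzma* was higher in IL-33+ grafts in all 3 types, by 0.94, 1.00 and 1.42, whereas *Ifi27l2a* was lower in Tcm (-1.10) and Tem/eff cells (-0.79) and higher in Tn cells (1.29). *Myd88* was lower in Tcm (-1.22) and Tem/eff cells (-0.59) and higher in Tn cells (1.67). None of these genes passed the adjusted threshold for a difference between types.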

How the data were processed

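Immune cells of 6 hearts were pooled for 3' single-cell sequencing with cell hashing. The authors used Cell Ranger with mm10 and Partek Flow 10.0.23.0425, kept cells with 1500 to 15000 counts, 400 to 4000 genes and under 20% mitochondrial reads (all 4441 deposited cells lie inside these limits) to remove likely doublets and poor cells, and deposited log2(CPM + 1) values with cell types and hashtags. How hashtags were assigned is not given in the sources used here, and no doublet caller was run. The most frequent CPM above 0 in a cell was taken as 1 UMI, which gave UMI counts; 99.9% of low values (up to 20 UMIs) were within 0.05 of a whole UMI. For 22 symbols the value is a mean over gene identifiers. Because CPM is not a count, the mean CPM over Tcm cells of a heart, plus 10 and log2 transformed, entered linear models of limma 3.58.1 (R 4.3.3; eBayes with trend) for genes with at least 10 UMIs and a UMI in at least 3 hearts, with Benjamini-Hochberg adjustment over all genes. Single measures per heart were compared by 2-sided exact permutation tests. Other steps used Python 3.11.15, numpy 2.4.6, pandas 2.3.3 and scipy 1.17.1. The script was tested on simulated data.

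The cells, gene lists and tests were chosen with earlier results of these data known. Named genes were the 25 with the smallest unadjusted p among those with 2-fold, an unadjusted p of 0.05 or less, no overlap and at least 30 UMIs, plus list members with an unadjusted p of 0.05 or less and the 4 most abundant of each list, of which some are given; genes that describe the type had the highest or lowest ratio to other T cell types, with at least 50 UMIs in Tcm cells or, for the lowest, in each other type. Splits by *Trdc* and the count of *Klra* UMIs and thinned shares of gene sets were added after seeing the data. Coordinates are those of GENCODE M21 on GRCm38, matched by symbol. No separate cultures or batches within the pool are given, and intervals cover counting error only. Some members of the lists and descriptions are not reported here.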

Additional observations from a re-analysis of the deposited data

How the results depend on the processing

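No paired analysis was possible because hearts 1 to 3 and 4 to 6 share no replicate numbers in the series' labels. The comparison of grafts was repeated with 1 and 50 CPM in place of 10 CPM, other filters, summed UMIs, centring, robust eBayes, limma-voom on recovered UMIs, without cells holding markers of another lineage, *Cd8a* or *Cd8b1*, *Foxp3* or *Trdc* UMIs, and without each heart. The count of genes called was 0 in all of these except without heart 2 (leave-one-out range 0 to 1). The 168 genes at 2-fold and an unadjusted p of 0.05 became 0 with a pseudocount of 50 CPM and 61 with at least 30 UMIs and 4 hearts, and ranged from 144 to 362 when each heart was left out, with 335 without heart 1 and 362 without heart 3. Of these genes 36.3% were higher in IL-33+ grafts, and 57.5% with limma-voom. The share of Tcm cells with a Cd8 UMI differed by -5.25 to 8.55 percentage points when each heart was left out, and turned negative without heart 3. For the 43 genes named by a p-value rule, no value passed the adjusted threshold in any setting, and 685 of 686 kept direction, though not size. The exception was *Ifnar1*, whose log2 difference was 0.073 without cells holding at least 2 markers of another lineage. The 43 genes were chosen for a small p in these same hearts, so the kept directions are not independent support for them. Of 224 list medians, 25 moved by more than the SD between hearts.

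Heart 2 had 19 Tcm cells, and 3 hearts per group cannot give an exact permutation p under 0.1. The hearts shared 1 gene expression library, no batch was examined, and the annotation was made on these cells. UMIs of coreceptor genes are sparse, so cells without one cannot be told from cells that do not express the gene.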

Other observations

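Transcripts of other cell types were found at low levels in cells annotated Tcm. The 6 B cell markers summed to 17.7 to 42.8 CPM in IL-33+ hearts and 24.1 to 44.3 CPM in IL-33- hearts. The 4 fibroblast markers summed to 264 to 322 and 240.3 to 294 CPM, and the 3 endothelial markers to 36.6 to 49.4 and 0 to 29.6 CPM. The endothelial sums were low and did not overlap between groups. Among single genes 10.3% did not overlap either, 15 marker lists were summed, and this difference was not tested. The 3 hemoglobin markers of erythrocytes reached 1212 CPM in heart 4 and lay between 51.3 and 278 CPM in the other 5 hearts. The type 2 innate lymphoid genes *Il5* and *Il17rb* and the dendritic cell gene *Xcr1* were at 0 in all 266 cells, which allows a share of up to 1.13% of cells with a UMI. At least 2 of the 6 NK markers were held by 25.9% of Tcm cells (7.52% after thinning), against 3.70% of Tn cells (0.823% after thinning).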
